A study of Mus musculus with 8 samples.

Results

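The interferon stimulated genes described here are 39 genes known to be switched on by interferons. They were taken by symbol from a fixed list and matched to Ensembl identifiers in the count files, where all 39 were found among 47643 genes. 31 are known mainly as targets of type I interferon and 8 mainly as targets of interferon gamma, and the 2 classes are kept apart below. The counts come from kidneys of 8 mice, 4 wild type (WT 1 to WT 4) and 4 conditional knockout (cKO 1 to cKO 4) of the genotype Six2-Cre;Cox10-fl/fl. The mice were 3 months old, except WT 2 and cKO 2, which were 2.5 months old. COX10 makes heme O, the precursor of the heme A that cytochrome c oxidase, the last enzyme complex of mitochondrial respiration, requires. The Six2 promoter drives Cre in the progenitors of the nephron, and collecting duct, vessels and leukocytes come from other lineages and keep the gene. Whether the wild types carried Cre or a floxed allele is not stated in the labels, and neither is sex.

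Interferons are secreted proteins that warn cells of viruses and of misplaced nucleic acids. Type I interferons bind IFNAR1 and IFNAR2 and act through the kinases JAK1 and TYK2 to a transcription factor complex that holds STAT2 and IRF9 and binds a DNA element called the ISRE. Interferon gamma binds IFNGR1 and IFNGR2 and acts through JAK1 and JAK2 on an element called GAS and induces IRF1. In kidney, tubular cells, endothelium and resident leukocytes can all respond to either signal.

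Promoter sequence is shown first, because interferon acts on genes of this kind through promoter elements. RefSeq windows on GRCm38.p6, from 250 bases before to 50 bases after a gene start, were matched by symbol for 31 of the 39 members. The ISRE was searched as GAAA, any 2 bases and GAAA, and GAS as TTCNNNGAA, each on both strands, with overlapping matches counted. A window held an ISRE match for 16 of these 31 members and a GAS match for 9, against 3.99% and 9.55% of the 27025 genes with a window. By class, 11 of 24 type I members and 5 of 7 interferon gamma members had an ISRE match. Stretches are given for some members with a match that the results below name, and members without a match are not printed. They hold 20 bases on each side of the matches, cut where they would reach the start. Matches are in capitals, and the stretches are written 5′ to 3′ along the gene.
Isg15 (chr4:156200855-156200916, minus strand): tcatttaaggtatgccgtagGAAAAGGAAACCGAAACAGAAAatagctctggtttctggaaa
Ifit1 (chr19:34640765-34640833, plus strand): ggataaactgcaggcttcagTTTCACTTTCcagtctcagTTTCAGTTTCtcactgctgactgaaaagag
Oas1a (chr5:120907526-120907565, minus strand): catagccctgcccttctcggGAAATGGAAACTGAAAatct
Bst2 (chr8:71537567-71537628, minus strand): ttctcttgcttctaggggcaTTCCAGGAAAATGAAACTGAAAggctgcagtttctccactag
Rsad2 (chr12:26456543-26456592, minus strand): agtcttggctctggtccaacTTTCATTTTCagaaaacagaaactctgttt
Gbp2 (chr3:142620584-142620633, plus strand): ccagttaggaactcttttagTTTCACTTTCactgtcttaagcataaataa
Irf1 (chr11:53769904-53769952, plus strand): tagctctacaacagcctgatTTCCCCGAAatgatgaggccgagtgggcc

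The 3 overlapping ISRE matches of Isg15 began 78 to 66 bases before the start, the 2 of Ifit1 at 104 and 85 bases, and the 2 of Oas1a at 20 and 14 bases. Oas1a also had a GAS match 98 bases before the start, outside the stretch printed. In Bst2 a GAS match overlapped the first of 2 ISRE matches, which overlapped each other. The Irf1 stretch held a GAS match and no ISRE match, 90 bases before the start. A match is only a description of these letters. Oas1a, Bst2, Gbp2 and Irf1 rose in cKO kidneys, and Isg15, Ifit1 and Rsad2 did not pass the test, as given below. Of the 8 members that rose, 4 had an ISRE match in a window, 4 a GAS match and 5 either or both. Lgals3bp, Irf7 and Irf9, which rose, and Ifi44, which fell, had neither. Of the 20 tested members with a window that did not pass, 10 had an ISRE match, 5 a GAS match and 13 either or both.

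The libraries held 9454830 to 15838026 counts. Levels are CPM, which are counts relative to library size, with sizes adjusted by TMM factors. Even the most alike libraries of a genotype had a chi-square of 16 for each gene, so no pair was within sampling noise. Cox10 itself had 19.2 to 24.6 CPM in WT and 10.9 to 22.3 CPM in cKO, a log2 fold change of -0.19 (95% interval -0.72 to 0.34, edgeR adjusted p = 0.619). A gene count also holds reads of exons that a deletion leaves and of cells outside the nephron, so it does not check the genotype labels. WT 4 and cKO 4 carry later sample numbers in the file headers than the other 6 libraries. Reads of Y-linked genes were present in WT 2, WT 3, WT 4 and cKO 3 (829 to 1707 counts) and absent from WT 1, cKO 1, cKO 2 and cKO 4, so sex was unbalanced between the genotypes. Nothing in the labels says more than that the mice are separate samples, and p values measure the spread between them. Markers of kidney epithelium were abundant in all 8 libraries, with 1257 to 8147 summed CPM for 5 proximal tubule genes.

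Of the 39 members, 34 had enough counts to be tested in the edgeR fit of genotype. In that fit 8 of the 34 rose in cKO kidneys and 1 fell, at a Benjamini-Hochberg adjusted p under 0.05 over all 13829 tested genes, where 16.7% of all tested genes passed, 9.57% higher and 7.14% lower. At an unadjusted p under 0.05, 17 members were higher and 2 lower, against 16.8% and 16.3% of all tested genes. With libraries scaled by total count alone, 1866 of all tested genes rose and 550 fell, in place of 1323 and 987, and 14 members rose. 27 of the 34 had a positive log2 fold change, against 49.1% of all tested genes, and the median was 0.72, against -0.01 for all tested genes. All 4 cKO libraries lay above all 4 WT libraries for 8 members, against 13.1% of all tested genes, and below them for 1, against 9.56%. Fold changes ran from -1.27 for Ifi44 to 1.80 for Oas1a. These counts change with a sex term, without the 2 libraries with later sample numbers and without WT 1, as given below.

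**Figure D1:**
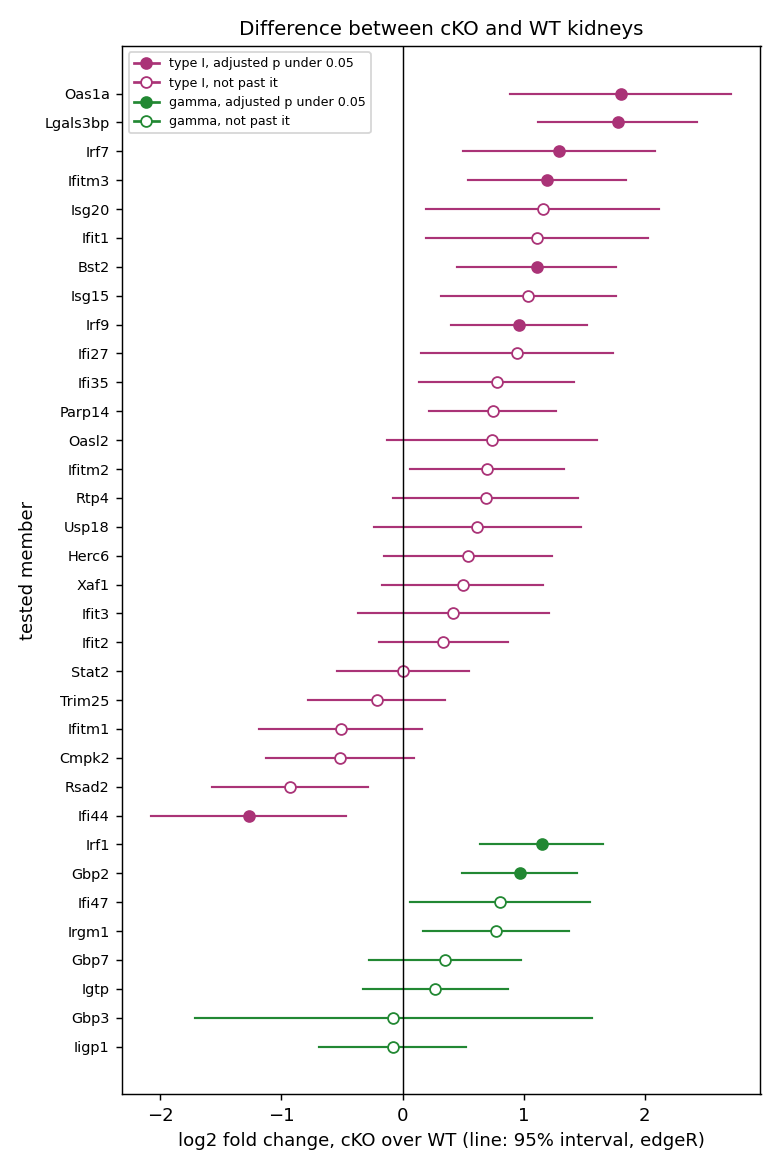
Log2 fold change of cKO over WT (x axis) for each of the 34 tested members (y axis), with the 95% interval from the edgeR fit as a line; filled points passed an adjusted p of 0.05, magenta marks type I and green interferon gamma members. 27 of the 34 points lie to the right of 0, and the Gbp3 interval, from -1.71 to 1.56, is the widest.

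Type I members rose in 6 of 26 tested cases (23.1%) and fell in 1 (3.85%), against 9.57% and 7.14% of all tested genes. Their median log2 fold change was 0.72, against -0.01 for all tested genes. The 6 were the RNA sensor enzyme Oas1a, the secreted glycoprotein Lgals3bp, the transcription factors Irf7 and Irf9, and the membrane proteins Ifitm3 and Bst2, which restrict viral entry and release. The gene that fell was Ifi44, a cytoplasmic protein induced by type I interferon. Of 8 tested leukocyte markers 5 rose in cKO too, while the macrophage receptor Csf1r had a log2 fold change of -0.64 (edgeR adjusted p = 0.156). The part of these markers in these results was not tested. In bulk tissue, fewer cells of a type and less RNA per cell cannot be told apart.

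Oas1a, an oligoadenylate synthetase that activates RNase L on double-stranded RNA, had 4.14, 1.72, 1.14 and 1.68 CPM in the WT libraries 1 to 4 and, in the same order, 5.0, 7.29, 11.2 and 6.85 CPM in the cKO libraries. Every cKO library was above every WT library, with WT 1 the highest of its genotype. The mean went from 2.17 ± 1.34 (SD, n = 4) to 7.60 ± 2.62 (SD, n = 4), a log2 fold change of 1.80 (95% interval 0.89 to 2.72, edgeR adjusted p = 0.0143). Oas1a had fractional counts in 6 libraries, which mark reads shared with another gene. Its close copy Oas1g, named here after its values were seen, had 0.343 ± 0.582 CPM in WT and 1.38 ± 0.633 in cKO (SD, n = 4). The sum of both genes was 2.51 ± 1.90 and 8.98 ± 3.16 CPM, a ratio of 3.57.

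Lgals3bp, a secreted galectin-binding glycoprotein, had 51.1, 24.8, 33.7 and 25 CPM in the WT libraries and 84.5, 88.1, 126 and 162 CPM in the cKO libraries. The groups did not overlap, and WT 1 was again the highest of its genotype. On the log2 scale the change was 1.77 (95% interval 1.12 to 2.43, edgeR adjusted p = 0.00301). Among the members it had the smallest adjusted p. It was also the only member still past the threshold when WT 4 and cKO 4 were left out together (log2 fold change 1.41, edgeR adjusted p = 0.0443), where 4.1% of all tested genes passed and 3.01% rose. The other 8 calls ended there, and the median log2 fold change of the 34 was 0.50.

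Irf7, the factor that amplifies type I interferon production, had 14.9, 9.76, 5.47 and 6.08 CPM in WT and 16.2, 15.7, 34.1 and 22.3 CPM in cKO. Here the groups were close, since WT 1 reached 14.9 and cKO 2 only 15.7. Its log2 fold change was 1.29 (95% interval 0.50 to 2.08, edgeR adjusted p = 0.0317). The call ended without WT 2, WT 3, WT 4, cKO 3 or cKO 4, at edgeR adjusted p of 0.0577, 0.0819, 0.0898, 0.0901 and 0.0813, and with a sex term, at 1.28 (edgeR adjusted p = 0.0703).

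Irf9, the DNA-binding subunit of the type I complex, had 21.0, 12.3, 10.2 and 11.4 CPM in WT and 21.2, 28.5, 29.7 and 27.7 CPM in cKO. WT 1 and cKO 1 were at nearly the same level, and the other libraries were well apart. Irf9 had a log2 fold change of 0.96 (95% interval 0.40 to 1.52, edgeR adjusted p = 0.0262), and the call held without WT 1 or cKO 1, while leaving out WT 2, WT 3, WT 4, cKO 2, cKO 3 or cKO 4 gave an edgeR adjusted p of 0.0547 to 0.0827. With a sex term it was at 0.84 (edgeR adjusted p = 0.0914) and did not pass. Its partner Stat2 had 8.13 ± 1.93 CPM in WT and 8.17 ± 1.35 in cKO (SD, n = 4), a log2 fold change of 0.00 with a 95% interval from -0.54 to 0.55. Irf9 shares 123 of its 5386 exon bases with the neighbouring gene Rnf31 on the same strand.

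Ifitm3, which blocks virus fusion in endosomes, had 44.5, 37.4, 24.8 and 19.3 CPM in WT and 58.2, 51.1, 96.2 and 82.0 CPM in cKO. Every cKO library was above WT 1. The log2 fold change was 1.19 (95% interval 0.54 to 1.85, edgeR adjusted p = 0.0206), and the call ended without WT 3, WT 4, cKO 3 or cKO 4, at edgeR adjusted p of 0.0583, 0.0543, 0.0571 and 0.0656, and with a sex term, at 1.17 (edgeR adjusted p = 0.0544). Bst2, or tetherin, which holds budding virus on the cell surface, had 18.7, 13.9, 8.16 and 8.15 CPM in WT and 18.4, 27.6, 31.3 and 27.8 CPM in cKO. Its groups overlapped, because cKO 1 lay below WT 1. It rose by 1.11 on the log2 scale (95% interval 0.45 to 1.77, edgeR adjusted p = 0.0283), and the call ended without WT 3, WT 4, cKO 2, cKO 3 or cKO 4, at edgeR adjusted p of 0.0754, 0.0811, 0.0599, 0.0704 and 0.0790, and with a sex term, at 1.02 (edgeR adjusted p = 0.0870). Bst2 is also a marker of plasmacytoid dendritic cells, whose defining marker Siglech, a lectin, had 7 counts over the 4 WT and 6 over the 4 cKO libraries.

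Ifi44 had 11.5, 6.20, 8.57 and 6.40 CPM in WT and 3.78, 1.31, 4.48 and 3.79 CPM in cKO. All cKO libraries were below all WT libraries, and cKO 2 was the lowest. Its log2 fold change was -1.27 (95% interval -2.07 to -0.47, edgeR adjusted p = 0.0357). The call ended without WT 1, WT 3, WT 4, cKO 1 or cKO 4, at log2 fold changes of -1.07, -1.25, -1.37, -1.33 and -1.33 and edgeR adjusted p of 0.0651, 0.0776, 0.0570, 0.0578 and 0.0824. With a sex term it was at -1.30 (edgeR adjusted p = 0.0824). A term for the later sample numbers of WT 4 and cKO 4 put it at -1.26 (edgeR adjusted p = 0.0528). With all libraries scaled by total count alone it missed the threshold too, at a log2 fold change of -1.09 (edgeR adjusted p = 0.0702), a scaling that raises the median of all tested genes to 0.15.

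**Figure D2:**
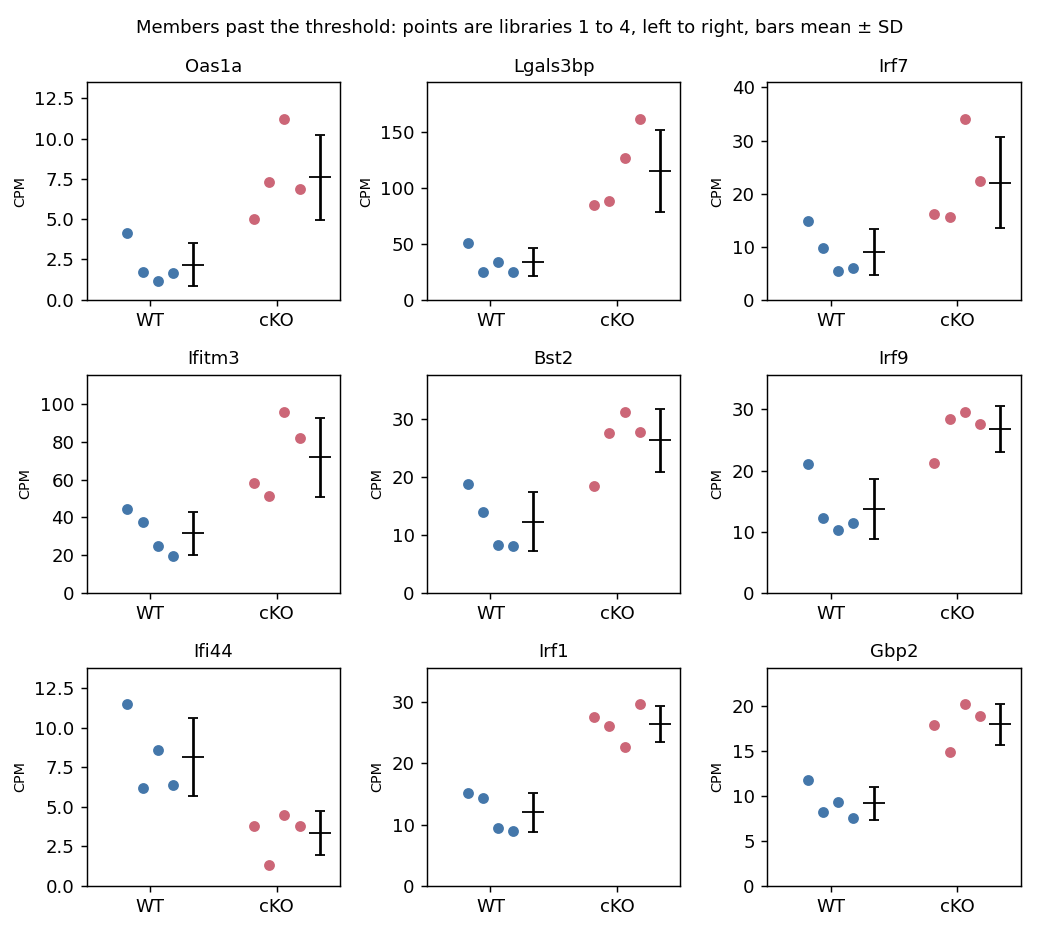
CPM (y axis, from 0) of the 9 members past the threshold, with 1 point for each library in the order 1 to 4 from left to right, blue for WT and red for cKO, and the mean ± SD of 4 libraries in black. In 8 panels the cKO points lie higher, with Bst2 the only one of these whose groups overlap, and in the Ifi44 panel all 4 lie lower.

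The other 19 tested type I members did not pass. 15 of them had a positive fold change and 4 a negative one. Isg15, a ubiquitin-like protein joined to other proteins during infection, had 5.95, 4.82, 2.45 and 3.62 CPM in WT and 7.75, 8.49, 12.4 and 5.94 CPM in cKO. The lowest cKO library, cKO 4, lay just under WT 1. For Isg15 the log2 fold change was 1.04 (95% interval 0.32 to 1.76, edgeR adjusted p = 0.0519), and without WT 1 it was 1.25 (edgeR adjusted p = 0.0262). The 3 Ifit genes encode proteins that hold back foreign RNA. Ifit1 had a log2 fold change of 1.11 (edgeR adjusted p = 0.0903), Ifit3 one of 0.42 (edgeR adjusted p = 0.444) and Ifit2 one of 0.34 (edgeR adjusted p = 0.357). Ifit1 stood at 8.30, 7.61 and 8.16 CPM in cKO 1, cKO 3 and cKO 4 and at 3.05 in cKO 2, and without cKO 2 it passed, at 1.35 (edgeR adjusted p = 0.0454). Ifit3 had fractional counts in 8 of 8 libraries, and the sum with its close copy Ifit3b was 23.4 ± 11 CPM in WT and 31.8 ± 6.04 in cKO (SD, n = 4).

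Some members lie side by side in the genome, and their calls were not alike. The 3 Ifitm genes stand within a short stretch of mm10 chromosome 7, Ifitm2 at 140954837 to 140955987, Ifitm1 at 140967221 to 140969825 and Ifitm3 at 141009586 to 141010770. Ifitm3 rose, while Ifitm2 had a log2 fold change of 0.70 (edgeR adjusted p = 0.119) and Ifitm1 one of -0.51 (95% interval -1.18 to 0.16, edgeR adjusted p = 0.268). Ifitm1 had 12.9, 11.8, 7.84 and 5.63 CPM in WT and 5.55, 5.0, 7.54 and 8.49 CPM in cKO, so WT 3 and WT 4 lay among the cKO libraries. The differences between these genes were not tested. Per kilobase of exon, Ifitm2 was the most abundant member, with 121 CPM per kilobase over all 8 libraries, followed by Ifitm3 with 76.2 and Ifi27, a mitochondrial membrane protein, with 39.5.

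Rsad2 and Cmpk2 are neighbours on chromosome 12, with 12751 bases between them, and both make antiviral nucleotides: Cmpk2 is a nucleotide kinase and Rsad2, or viperin, turns CTP into a chain terminator. Rsad2 had 26.4, 14.2, 23.1 and 13.5 CPM in WT and 10.5, 7.72, 14.4 and 7.96 CPM in cKO. 3 of the 4 cKO libraries lay below every WT library, and cKO 3 was just above WT 2 and WT 4. Rsad2 had a log2 fold change of -0.93 (95% interval -1.57 to -0.28, edgeR adjusted p = 0.0514), and it passed without WT 2 or cKO 3, at -1.05 and -1.14 (edgeR adjusted p = 0.0447 and 0.0379). Cmpk2 had a log2 fold change of -0.52 (95% interval -1.13 to 0.09, edgeR adjusted p = 0.216), with 15.6 ± 4.26 CPM in WT and 10.8 ± 3.25 in cKO (SD, n = 4). So of the 5 type I members with a negative fold change, 1 fell and the others, which include the ubiquitin ligase Trim25 at -0.21 (edgeR adjusted p = 0.596), did not pass.

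The remaining type I members span a range below the threshold. Isg20, an exonuclease, Ifi27 and Ifi35 had log2 fold changes of 1.16, 0.94 and 0.78 (edgeR adjusted p = 0.0935, 0.0961 and 0.0896), and Ifi35 passed without cKO 1 at 0.95 (edgeR adjusted p = 0.0476). Parp14, an ADP-ribosyltransferase, had one of 0.74 (edgeR adjusted p = 0.0543) although its groups did not overlap, with 6.20 to 9.63 CPM in WT and 9.68 to 16.1 in cKO. Without cKO 2, Parp14 was at 0.88 and Oasl2 at 1.02, and both passed (edgeR adjusted p = 0.0291 and 0.0391). Oasl2, Rtp4, Usp18, which removes ISG15 from proteins and dampens IFNAR signalling, Herc6 and Xaf1 lay between 0.50 and 0.74, each with overlapping groups and an edgeR adjusted p of 0.192 to 0.293. 5 type I members had too few counts to be tested. Over the 4 WT and the 4 cKO libraries, Oas2 had 34 and 46 counts, Oas3 had 5 and 14, Mx1 had 11 and 19.5, Mx2 had 14 and 19.5 and Ddx60 had 27 and 25. Mx1 and Mx2 encode dynamin-like antiviral GTPases, and Mx1 is known to be defective in many laboratory strains.

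Interferon gamma members rose in 2 of 8 tested cases and fell in 0, with a median log2 fold change of 0.56. At an unadjusted p under 0.05 in the main edgeR fit, 4 of the 8 were higher and 0 lower, against 16.8% and 16.3% of all tested genes. DESeq2 and limma-voom called 0 lower. Both that rose kept the call whichever single library was left out, as did Oas1a and Lgals3bp of the type I class. The largest edgeR adjusted p of Gbp2 in these fits was 0.0497. Irf1, a transcription factor induced by interferon gamma, had 15.2, 14.3, 9.47 and 8.92 CPM in WT and 27.5, 26.1, 22.7 and 29.6 CPM in cKO. The groups were far apart and the cKO libraries lay close together. The mean went from 12 ± 3.24 to 26.5 ± 2.92 CPM (SD, n = 4), a log2 fold change of 1.15 (95% interval 0.64 to 1.66, edgeR adjusted p = 0.0079). Gbp2, a guanylate-binding GTPase that attacks vacuoles of intracellular pathogens, had 11.7, 8.27, 9.31 and 7.50 CPM in WT and 17.9, 14.9, 20.2 and 18.9 CPM in cKO. Its groups did not overlap, and the log2 fold change was 0.97 (95% interval 0.49 to 1.44, edgeR adjusted p = 0.0127). With a sex term Gbp2 was at 0.92 (edgeR adjusted p = 0.053) and did not pass.

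Among the immunity-related GTPases, Irgm1, which had the highest mean of the interferon gamma members at 8.84 CPM per kilobase, had 51.7, 28.6, 36.7 and 34.9 CPM in WT and 69.3, 36.3, 82.1 and 71.1 CPM in cKO. 3 cKO libraries were above every WT library and cKO 2 lay among the WT libraries. Its log2 fold change was 0.77 (95% interval 0.17 to 1.37, edgeR adjusted p = 0.0759), and it passed without WT 1 at 0.95 (edgeR adjusted p = 0.0353) and without cKO 2 at 0.97 (edgeR adjusted p = 0.0212). Ifi47 had a log2 fold change of 0.81 (edgeR adjusted p = 0.122), Igtp one of 0.27 (edgeR adjusted p = 0.519) and Iigp1 one of -0.08 (95% interval -0.69 to 0.53, edgeR adjusted p = 0.861). Igtp shares 162 of its 2022 exon bases with Irgm2, and the sum of both was 32.6 ± 8.77 CPM in WT and 35.7 ± 9.84 in cKO (SD, n = 4). Gbp7, a neighbour of Gbp3 on chromosome 3, had a log2 fold change of 0.35 (edgeR adjusted p = 0.415).

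Gbp3 had 44.5, 4.36, 6.29 and 4.40 CPM in WT and 19.2, 10.3, 12.4 and 14.5 CPM in cKO. WT 1 alone stood above every cKO library, and the other 3 WT libraries stood below every cKO library. With all libraries the log2 fold change was -0.08 (95% interval -1.71 to 1.56, edgeR adjusted p = 0.954). Without WT 1 it was 1.49 (edgeR adjusted p = 0.00534). DESeq2 gave no adjusted p for it.

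**Figure D3:**
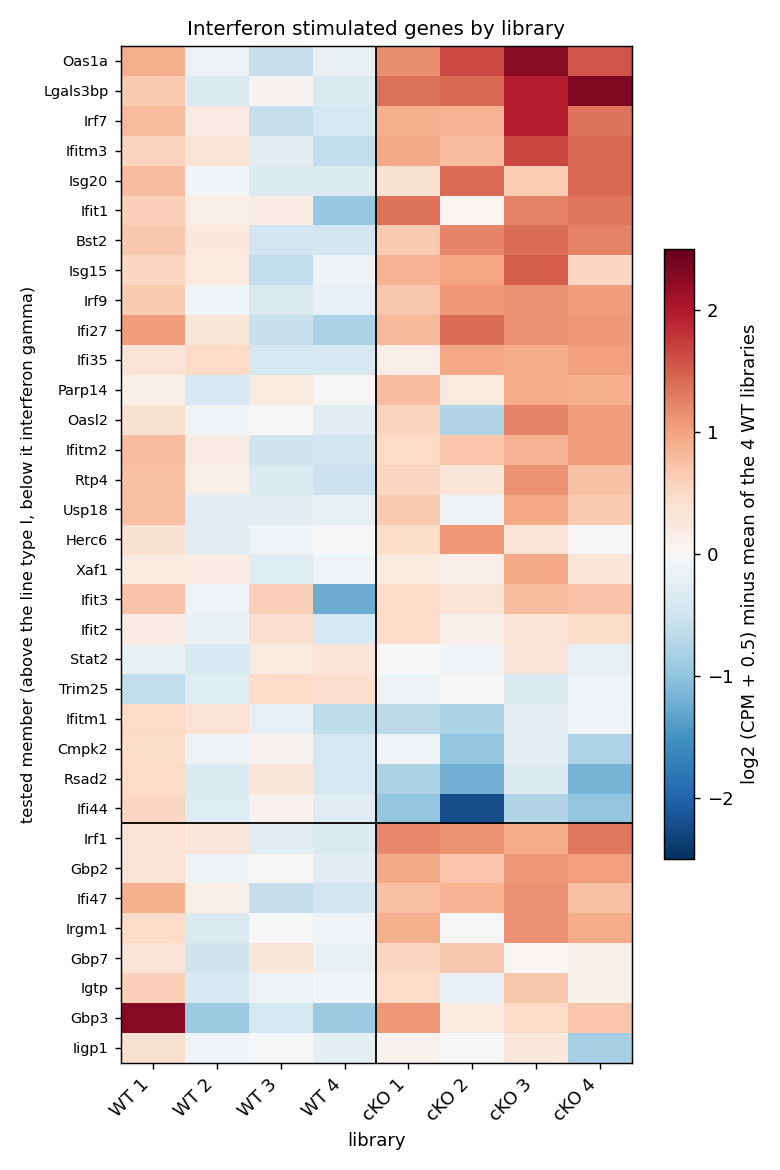
Heat map of the 34 tested members (rows, type I above the line and interferon gamma below it, each in order of fold change) in the 8 libraries (columns), coloured by log2 (CPM + 0.5) minus the mean of the 4 WT libraries. Most rows are red in cKO, the lowest type I rows are blue there, and WT 1 is redder than the other WT columns, most of all for Gbp3.

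The WT 1 library stood apart across the list. It was the highest of the 4 WT libraries for 29 of the 34 tested members (85.3%), against 26.5% of all tested genes. WT 4 was the lowest for 15 members (44.1%), against 15.0% of all tested genes. Among the cKO libraries, cKO 3 was the highest for 20 members (58.8%, against 18.7% of all tested genes) and cKO 2 the lowest for 18 (52.9%, against 37.6%). The median over tested members of log2 (CPM + 0.5) minus the WT mean was 0.51, -0.10, -0.17 and -0.36 for the WT libraries 1 to 4. For the cKO libraries it was 0.55, 0.31, 0.93 and 0.74. On this measure WT 1 lay above cKO 2 and just under cKO 1. Over all tested genes the same median stayed between -0.01 and 0.03.

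With WT 1 left out, 16 members rose and 0 fell, where 22.0% of all tested genes passed and 11.6% rose, and the median log2 fold change of the 34 was 0.97. The 8 added were Isg20, Isg15, Ifi27, Ifitm2 and Rtp4 of the type I class and Ifi47, Irgm1 and Gbp3 of the interferon gamma class, at log2 fold changes of 0.95 to 1.60. The lower call of Ifi44 ended, and Ifi44 and Rsad2 were the 2 members lower at an unadjusted p under 0.05. In that fit, Ifi27 went from 0.94 to 1.40 (edgeR adjusted p = 0.00771) and Ifi47 from 0.81 to 1.22 (edgeR adjusted p = 0.0121).

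WT 1 is also the only WT library without Y-linked reads, so its level and the sex of the animal cannot be told apart here. With a term for Y-linked reads in the fit, 3 members rose and 0 fell by edgeR, with Ifi44 and Rsad2 the 2 lower at an unadjusted p under 0.05, where 6.8% of all tested genes passed and 5.17% rose. They were Oas1a at 1.76 (edgeR adjusted p = 0.0334), Lgals3bp at 1.65 (edgeR adjusted p = 0.0087) and Irf1 at 0.97 (edgeR adjusted p = 0.0445). The other 6 calls ended, and the median of the 34 was 0.66 in place of 0.72. Among the libraries without Y-linked reads, cKO 1, cKO 2 and cKO 4 against WT 1, the median was 0.15, against 0.07 for all tested genes, and 0 members passed by edgeR, where 0.868% of all tested genes did. At an unadjusted p under 0.05 Lgals3bp was higher (1.13), and 4 were lower, Ifi44 (-1.93), Gbp3 (-1.60), Rsad2 (-1.59) and Cmpk2 (-1.05), where 6.64% of all tested genes were higher and 5.04% lower. The fold change was positive for 22 of 34, against 54.8% of all tested genes. Among those with Y-linked reads, cKO 3 against WT 2, WT 3 and WT 4, the median was 1.14, against -0.04 for all tested genes, and 5 members rose, where 3.47% of all tested genes passed and 2.99% rose. Those 5 were Oas1a, Lgals3bp, Irf7, Ifitm3 and Irf9, at log2 fold changes of 2.89, 2.18, 2.27, 1.83 and 1.39. In this contrast the fold change was positive for 29 of 34, against 47.7% of all tested genes. Each of these contrasts rests on a single library on 1 side.

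The difference between the 2 contrasts was tested as a genotype-by-sex interaction. 0 of the 34 members passed with edgeR, and 0 with limma-voom, where 9 of all 13829 tested genes (0.0651%) passed with edgeR. At an unadjusted p under 0.05 there were 10 members, against 3.98% of all tested genes. The interaction was positive for 33 of 34 members, against 45.1% of all tested genes, with Trim25 the exception. All members share WT 1 and cKO 3, each the only library of its genotype and sex, and WT 1 was high within WT and cKO 3 within cKO for most of them, so this sign adds no separate evidence. Gbp3 had the smallest unadjusted p, 0.000384, at an interaction of 2.90 on the log2 scale (adjusted p = 0.292 with edgeR).

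**Figure D4:**
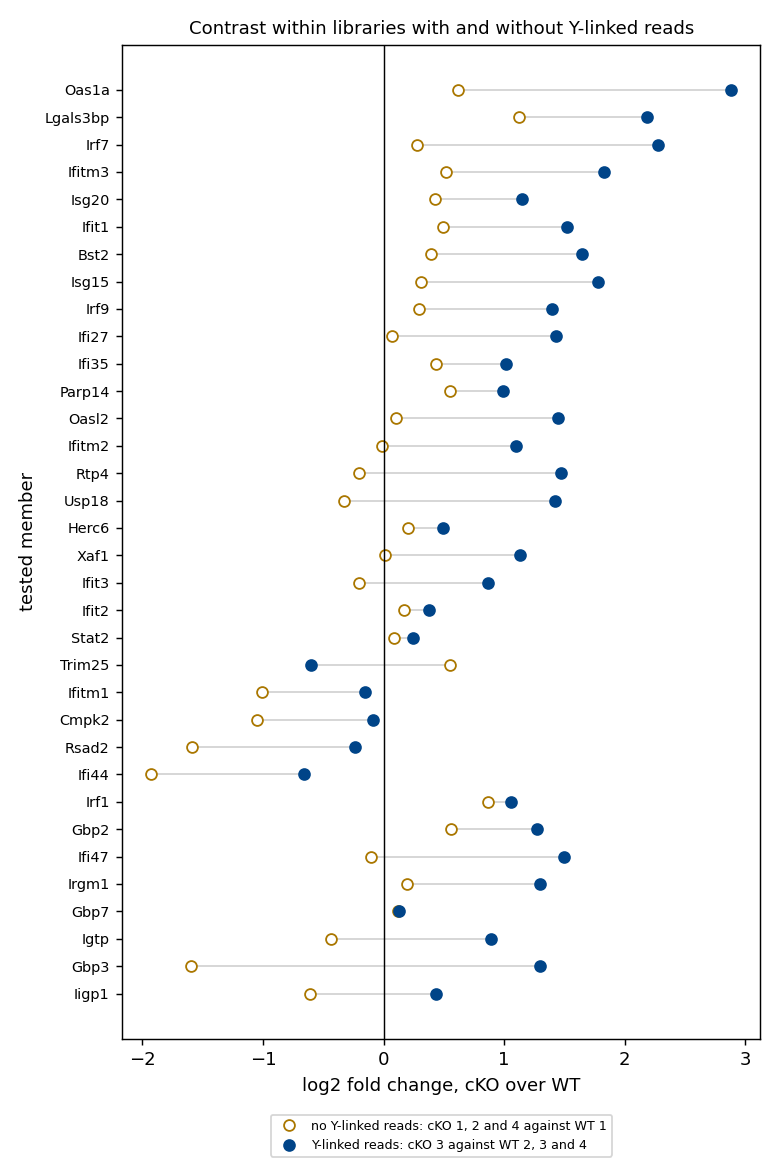
Log2 fold change of cKO over WT (x axis) for each tested member (y axis), from cKO 1, cKO 2 and cKO 4 against WT 1 (open points, no Y-linked reads) and from cKO 3 against WT 2, WT 3 and WT 4 (filled points, Y-linked reads). The filled point lies to the right of the open one for 33 of 34 members, and for Gbp3 the points lie at -1.60 and 1.30.

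For the rest of the pathway, 10 genes rose and 2 fell, against 9.57% and 7.14% of all tested genes. They were among 42 tested genes on a list of 52 other genes. Of the 9 interferon genes on it, Ifnb1, Ifna1, Ifna2, Ifna4, Ifne, Ifnk, Ifnl2 and Ifnl3 had 0 counts in every library, and Ifng had 2 counts over the WT and 0 over the cKO libraries. At 3 counts as the floor, these transcripts were not detectable at this depth. Among the receptors, both chains for interferon gamma rose. Ifngr1 went from 23.8 to 28.5 CPM in WT to 48.4 to 98.5 CPM in cKO, a log2 fold change of 1.32 (edgeR adjusted p = 0.00509). Ifngr2 went from 20.4 to 27.3 CPM in WT to 41.9 to 62.1 CPM in cKO, a log2 fold change of 1.18 (edgeR adjusted p = 0.00318). Neither overlapped between genotypes, and both kept their call with a sex term and with each single library left out. Without WT 4 and cKO 4 together they stood at 1.32 and 1.01 (edgeR adjusted p = 0.0552 and 0.0613). The type I receptor chains Ifnar1 and Ifnar2 had log2 fold changes of 0.25 and 0.60 (edgeR adjusted p = 0.361 and 0.0831), and Ifnar2 passed without WT 1 at 0.75 or without cKO 2 at 0.71 (edgeR adjusted p = 0.0326 and 0.0484). Ifnlr1 and Il10rb, the chains for lambda interferons, had log2 fold changes of -0.02 and 0.24 and did not pass.

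Of the 3 kinases, 1 changed. Jak2, which serves the interferon gamma receptor, fell from 33.5 to 35.4 CPM in WT to 20.2 to 23.4 CPM in cKO, a log2 fold change of -0.64 (edgeR adjusted p = 0.0245). Its libraries were tightly grouped, yet the call ended without WT 3, WT 4, cKO 1, cKO 3 or cKO 4, at log2 fold changes of -0.64, -0.64, -0.64, -0.59 and -0.64 and an edgeR adjusted p of up to 0.0806. It ended too with libraries scaled by total count, at -0.48 (edgeR adjusted p = 0.0844). Jak1 and Tyk2 had log2 fold changes of -0.13 and 0.04, with 95% intervals of -0.61 to 0.35 and -0.47 to 0.56. Of the other IRF genes, Irf5 fell from 18 ± 3.02 to 9.18 ± 2.06 CPM (SD, n = 4), a log2 fold change of -0.97 (edgeR adjusted p = 0.0163), and without cKO 4 it was -0.87 (edgeR adjusted p = 0.0565). Irf2, Irf3 and Irf8 did not pass. Neither Jak2 nor Irf5 passed with a sex term (edgeR adjusted p = 0.0805 and 0.0971).

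Socs3, an inhibitor of JAK signalling that several cytokines induce, showed the largest rise on the list. It had 2.24, 1.72, 1.80 and 1.29 CPM in WT and 14.0, 13.7, 19.8 and 25.5 CPM in cKO. The lowest cKO library stood far above the highest WT library, and the log2 fold change was 3.37 (95% interval 2.71 to 4.03, edgeR adjusted p = 7.54e-05). Of 24 other target genes 7 rose and 0 fell, against 9.57% and 7.14% of all tested genes. The chemokine Cxcl10 had 1.95 to 2.78 CPM in WT and 15.9, 3.37, 11.4 and 9.20 CPM in the cKO libraries 1 to 4, a log2 fold change of 2.01 (edgeR adjusted p = 0.0079). As with Ifit1, cKO 2 was the low library. Its relative Cxcl11 had 0.115 to 0.863 CPM in WT and 0.870 to 2.14 in cKO and a log2 fold change of 1.88 (edgeR adjusted p = 0.0351), a call that ended without WT 2, WT 3, WT 4, cKO 1, cKO 3 or cKO 4, at an edgeR adjusted p of 0.0617 to 0.101. Cxcl9 had one of 0.38 (edgeR adjusted p = 0.712).

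4 of the 7 act in class I antigen presentation, while the class I genes H2-D1, Psmb9 and Nlrc5 of the same list did not pass. H2-K1, a class I heavy chain, went from 133 to 168 CPM in WT to 381 to 632 CPM in cKO, a log2 fold change of 1.58 (edgeR adjusted p = 0.00176), and the immunoproteasome subunit Psmb8 had one of 1.65 (edgeR adjusted p = 0.00368). The peptide transporter Tap1 and the class I light chain B2m had log2 fold changes of 0.95 and 1.31 (edgeR adjusted p = 0.0157 and 0.0197). Tap1 lost its call without cKO 3 (0.85, edgeR adjusted p = 0.0519), and B2m lost its call without WT 3, WT 4 or cKO 4 (1.15, 1.19 and 1.19, edgeR adjusted p = 0.0533, 0.0638 and 0.0657). Dhx58, a regulator of RNA sensing, had a log2 fold change of 1.83 (edgeR adjusted p = 0.0467), and the call ended without WT 3, WT 4, cKO 1, cKO 2, cKO 3 or cKO 4, at an edgeR adjusted p of 0.0689 to 0.114. The interferon-gamma-induced Ciita, Gbp4, Gbp5, Gbp6 and Irgm2 did not pass, and the last 4 of these had log2 fold changes of -0.37 to -0.02. With a sex term 7 of the 10 that rose passed and 0 fell, where 6.8% of all tested genes passed and 5.17% rose.

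Markers of other cells moved with genotype beside these results. Of 9 leukocyte markers 8 were tested, 5 rose and 0 fell, and none was at 0 in all libraries. Their summed level ran from 89.2 to 145 CPM in WT and from 298 to 593 CPM in cKO, and Lyz2, the lysozyme of myeloid cells, gave 219 to 532 CPM of the cKO sums and 19.4 to 77.5 of the WT sums. The other 8 markers summed to 67.0, 54.3, 89.7 and 68.4 CPM in WT and 78.5, 60.8, 102 and 83.0 CPM in cKO, a split made after the values were seen. These sums overlapped between genotypes, and their largest part in every library was Csf1r. It had 45.5, 43.7, 70.3 and 55.2 CPM in WT and 36.6, 17.3, 49.4 and 34.6 CPM in cKO. Cd68, Itgam and Itgax lay higher in every cKO library than in every WT library, while Ptprc, Adgre1, Cd3e and Cd79b overlapped. Within cKO the sums stood in the same order as the member medians, lowest in cKO 2 and highest in cKO 3, the libraries where Csf1r too was lowest and highest. Within WT the orders differed, with the highest member median in WT 1 and the highest of these sums in WT 3. With Lyz2 included, cKO 2 had the highest sum. Csf1r, a macrophage receptor, had a log2 fold change of -0.64 (edgeR adjusted p = 0.156). The 8 T and NK cell markers summed to 4.27 to 8.37 CPM in WT and 6.72 to 15.4 CPM in cKO, with 3 tested and 1 that rose, and the NK cell receptor Ncr1 had 4 counts over the WT and 1 over the cKO libraries. The 5 endothelial markers summed to 159 to 226 CPM in WT and 130 to 189 CPM in cKO, and 2 fell. The 5 proximal tubule markers summed to 4984 to 8147 CPM in WT and 1257 to 3911 CPM in cKO, and 3 fell. Of 4 markers of loop, distal tubule and collecting duct, the water channel Aqp2 rose from 282 ± 111 to 1111 ± 670 CPM (SD, n = 4), a log2 fold change of 1.98 (edgeR adjusted p = 0.0117), and the salt transporter Slc12a3 fell by 0.95 on the log2 scale (edgeR adjusted p = 0.032). The part of these shifts in the values of the members was not tested.

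**Figure D5:**
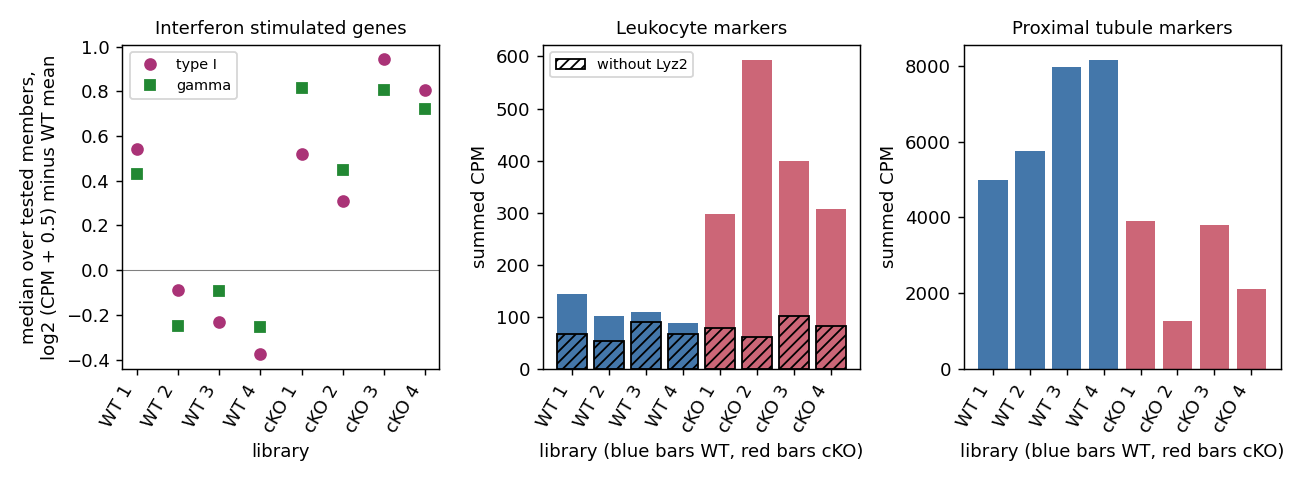
Left, median over tested type I (circles) and interferon gamma (squares) members of log2 (CPM + 0.5) minus the WT mean (y axis) in each library (x axis); middle and right, summed CPM of 9 leukocyte and 5 proximal tubule markers, blue for WT and red for cKO, with the leukocyte sum without Lyz2 hatched. WT 1 stands near the cKO libraries on the left, and cKO 2 has the lowest cKO points there, the tallest leukocyte bar (593 CPM) and the lowest hatched cKO bar (60.8 CPM).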

How the data were processed

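Kidney RNA of 8 mice was analysed. Per the labels, stranded libraries of polyadenylated RNA were made from frozen kidneys, and the submitters' processing notes name STAR, RSEM and the build mm10. For their versions, the annotation and strandedness of counting, nothing is given in the sources used here. Values, as deposited, are RSEM expected counts per gene, which the authors did not scale, and 47224 of 47643 identifiers were matched to a symbol in GENCODE for that build. Expected counts were rounded, genes were filtered with filterByExpr, library sizes were adjusted by TMM factors (trimmed mean of M values), and cKO was compared with WT by the edgeR quasi-likelihood test (two-sided), with p values adjusted by Benjamini-Hochberg across every tested gene. A positive log2 fold change means higher in cKO, and its 95% interval was computed from the same fit. A library was scored as having Y-linked reads if 4 genes of that chromosome summed to 10 counts or more. Alternatives covered scaling, filter, tool, sex, age, a replicate block, each library left out and splits by Y-linked reads. The floor of 3 counts covers counting error only. 9 members had a fractional count in a library, which marks reads shared with another gene. Because it is unknown whether counting used strand, reads of overlapping antisense genes may be included.

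The members, gene lists and tests were chosen with earlier results of these data known. The rule names members that passed in the fit or with the sex term, the 3 of each class with the highest mean CPM, the largest rise and fall in each class and the untested members. Of the other pathway genes it names ligands, receptors, kinases and those that passed, and 1 gene is not reported here. Other genes were named after their values were seen. The steps were tested on simulated data. DESeq2 1.42.0, limma 3.58.1 and edgeR 4.0.16 ran under R 4.3.3, and tables were joined in Python 3.11.15. A term for the run of sample numbers was added after seeing the data.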

Additional observations from a re-analysis of the deposited data

Results flagged for a closer look

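In 4 of 68 sets of 4 libraries (a tested member in 1 genotype), 1 library lay far from the other 3, and chance gives about 1 in 20 such sets. Gbp3 stood at 44.5 CPM in WT 1, with the other WT libraries at 4.36 to 6.29. Usp18 stood at 3.97 CPM in WT 1, with the others at 1.71 to 1.88. Ifit1 stood at 3.05 CPM in cKO 2, with the others at 7.61 to 8.30. Ifi35 stood at 14.2 CPM in cKO 1, with the others at 24.5 to 26.4.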

How the results depend on the processing

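The main counts were 8 members higher and 1 lower (6 and 1 of type I, 2 and 0 of interferon gamma), and 10 and 2 of the other pathway genes. Scaling by library size gave 14 and 0 members (11 and 0 of type I) and 1 lower pathway gene. The sex term gave 3 and 0 (2 and 0 of type I, 1 of interferon gamma) and 0 lower pathway genes. Without WT 4 and cKO 4 there were 1 and 0 (1 and 0 of type I, 0 of interferon gamma) and 3 and 0 pathway genes. Within libraries without Y-linked reads there were 0 and 0, with 1 and 0 pathway genes, and within those with them 5 and 0 (0 lower of type I, 0 higher of interferon gamma), with 3 and 0 pathway genes. At an adjusted p of 0.1 there were 15 and 2 (12 and 2 of type I). No count filter, DESeq2, the age term and the replicate block each gave 2 lower members, both of type I, and no count filter gave 1 lower pathway gene. Without WT 2 and cKO 2 there were 3 higher type I members and 1 lower pathway gene. Leaving out 1 library at a time gave 4 to 16 higher and 0 to 2 lower members (2 to 11 and 0 to 2 of type I, 2 to 5 higher of interferon gamma) and 7 to 11 higher and 0 to 2 lower pathway genes. Replicate numbers were not taken as pairs, since same-number correlations of WT and cKO residuals were -0.12, 0.34, 0.12 and 0.02. The replicate block gave 9 higher members and changed no count of calls by over 1.5 times other than that of lower members. The term for the run of sample numbers gave 8 and 1. The lower member there was Rsad2 (-0.91, edgeR adjusted p = 0.0491) in place of Ifi44 (-1.26, edgeR adjusted p = 0.0528). The genotype-by-sex count was 0 under each alternative. Of all tested genes 2310 passed in the main fit, 941 with the sex term, 568 without WT 4 and cKO 4, 120 and 480 within libraries without and with Y-linked reads, and 1155 to 3093 with 1 library left out. The cause of these shifts was not tested, and the fits that leave libraries out also have fewer samples.

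Changes of sign were found only for members that did not pass. Within libraries without Y-linked reads, Ifitm2, Rtp4, Usp18, Ifit3, Ifi47 and Igtp were at -0.010, -0.21, -0.33, -0.20, -0.11 and -0.43 and Trim25 at 0.55. Stat2 was at -0.0068 with no count filter, -0.087 without WT 2 and cKO 2 and -0.12 to 0.13 with 1 library left out, below 0 without WT 1, WT 2 or cKO 3. Gbp3 was at 0.14 with library size scaling, 0.70 with limma-voom, 0.072 with the age term, 0.68 with the replicate block, 0.089 with the number run term, 1.30 within libraries with Y-linked reads and -0.38 to 1.49 with 1 library left out, above 0 without WT 1 or cKO 2. Iigp1 was at 0.082 with library size scaling, 8.8e-05 without WT 4 and cKO 4, 0.43 within libraries with Y-linked reads and -0.22 to 0.12 with 1 library left out, above 0 without WT 1 or cKO 4. At this depth the 5 untested members, with 5 to 46 counts a genotype, could not be compared.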
